A study of Mus musculus with 16 samples.

Results

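Glycerophosphodiester phosphodiesterases are enzymes that split the deacylated or partly deacylated backbone of a membrane phospholipid, releasing a glycerol phosphate or a lysophosphatidic acid on one side and the head group (choline, ethanolamine, inositol or an N-acylethanolamine) on the other. The family was defined here by gene symbol, as the non-control probes named Gdpd1, Gdpd2, Gdpd3, Gdpd4, Gdpd5 or Gde1. These 6 genes had 1 probe each, 6 of the 55681 probes on the array. Gdpd3 was picked because of its difference between the groups on these same arrays, so its values are given as a description without a test. The other 5 genes were picked by family name, and the question put to them was whether Gdpd3 stood alone.

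RNA of the hypothalamus was measured on 1-colour Agilent arrays in 8 control mice and 8 mice that the submitters call KO chimeras, 1 mouse per array. The KO chimeras were C57BL/6J recipients exposed to a lethal dose of radiation (950 Rad) and given whole marrow from Adrb1tm1BkkAdrb2tm1Bkk/J donors, which lack the beta-1 and beta-2 adrenergic receptors, by one retro-orbital injection. A ratio of 1:4 is given for donor and recipient strain, and the mice recovered for 2 to 3 months. The labels repeat this treatment for all 16 mice and give irradiated C57BL/6J as the strain of all 16, while a donor strain is named for the KO chimeras alone. Whether the control mice were irradiated or given marrow of another kind is therefore not settled, and age and sex are not given in the sources used here. In such a chimera the deletion lies in cells of marrow origin, and the neurons and glia of the host keep its own receptors.

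Each array had 27276 to 43248 non-control spots well above background by the scanner's own call, fewest in KO chimera replicate 1 and most in control replicate 8. The arrays lay on 6 slides, 5 of them with both groups, and were scanned on 2 days with 4 arrays of each group per day. Of 16 markers of hypothalamic neurons 15 passed the filter on dim probes and 13 were well above background on every array, Otp being the one left out; 0 of the 15 passed between the groups (limma adjusted p under 0.05; 2 at an unadjusted p under 0.05), where 3.8% of all genes passed and 20.7% had an unadjusted p under 0.05. Values below are log2 of the processed signal minus the 75th percentile of the array, so 0 is the brightness that 75% of the non-control spots fall under. A level is given only for a probe against itself in the other group, since probes differ in brightness for reasons of their own.

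The family members act at different points of phospholipid breakdown. Gdpd1, Gdpd3 and Gde1 belong to the route that yields lysophosphatidic acid or N-acylethanolamines, which are lipid signals in brain that act on receptors for lysophosphatidic acid and on cannabinoid and related receptors. Gdpd2 and Gdpd5 are membrane proteins with their catalytic domain outside the cell, and Gdpd5 cuts the glycosylphosphatidylinositol anchor that holds proteins such as Reck and glypicans on neurons.

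The probes of Gdpd3 and Gde1 are shown because their positions span more than their 60 bases, so that each reads across a splice junction of its gene. Each is written 5′ to 3′ as in the array's design; the Gdpd3 probe lies at chr7:133914520-133914693 on the plus strand and the Gde1 probe at chr7:125832643-125835134 on the minus strand (mm9).
Gdpd3: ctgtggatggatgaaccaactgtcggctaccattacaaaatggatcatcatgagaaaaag
Gde1: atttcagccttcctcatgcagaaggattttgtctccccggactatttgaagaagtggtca
The longest run of bases that the Gdpd3 probe shares with any of the other 55680 probes is 14, found in 2 probes. No probe of a member shared 20 bases with another probe of the array.

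Gdpd3, an enzyme of the endoplasmic reticulum that works as a lysophospholipase D, was near background in control mice and above it in KO chimeras. In the 8 control mice its level was −6.45 at the lowest, −5.16 at the median and −4.62 at the highest. In the 8 KO chimeras it was −2.82 at the lowest, −2.25 at the median and −2.0 at the highest. Every KO chimera lay above every control mouse, with a clear gap between the groups. The means were −5.43 ± 0.73 in control and −2.32 ± 0.30 in KO chimeras (SD, n = 8 each), a difference of 3.11 ± 0.28 (SE), or 8.61-fold on this scale. Over all probes past the filter, 0.839% had groups that did not overlap. In whole tissue, a change in the number of cells of a type and a change in RNA per cell cannot be told apart.

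**Figure D1:**
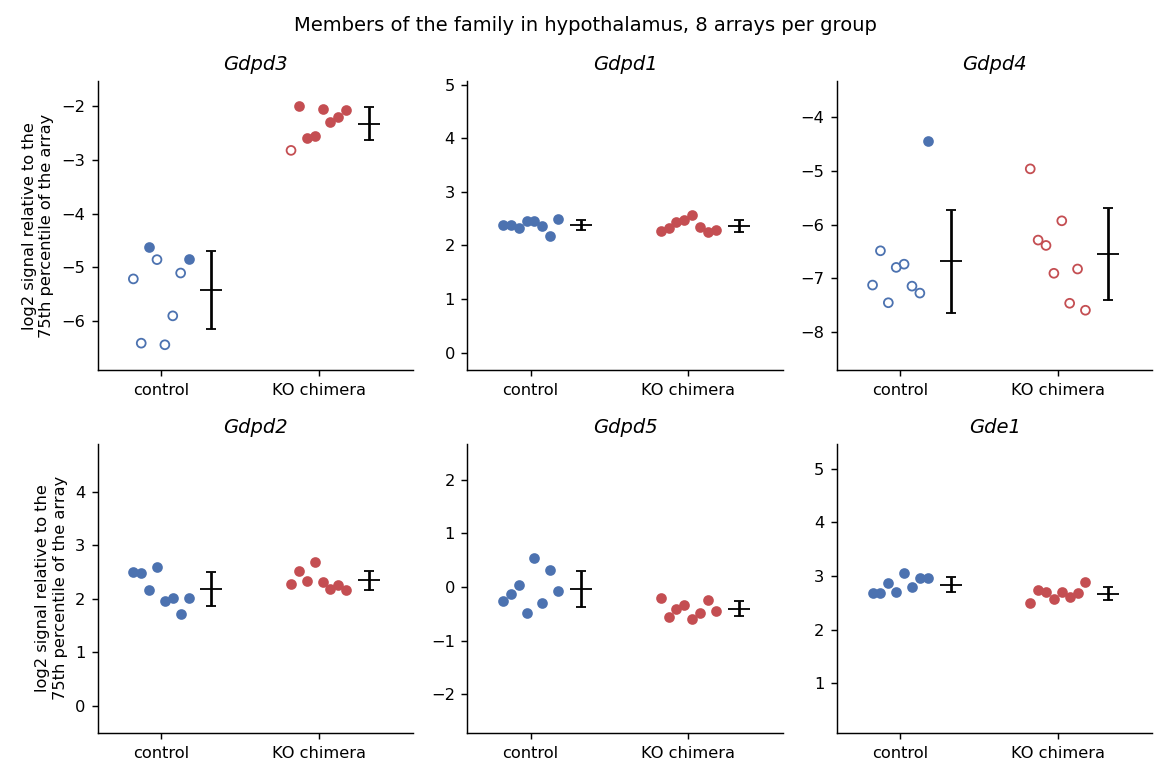
Level of each member on the 16 arrays (log2 signal relative to the 75th percentile of the array) in control mice (blue) and KO chimeras (red), with mean and SD (n = 8) in black. Filled points were well above background and open points were not; every panel spans the same height, and the groups are apart for Gdpd3, with means of −5.43 and −2.32.

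The size of that difference rests on a control level that the scanner hardly measured. The Gdpd3 spot was well above background in 2 of 8 control mice (replicates 3 and 8) and in 7 of 8 KO chimeras (all but replicate 1). It therefore passed the filter through the KO chimeras, with 9 of 16 arrays. Before subtraction the spot read 18.0 to 40.8 scanner units in control mice, against a local background of 19.0 to 31.0. In KO chimeras it read 44.6 to 124 units, against a local background of 19.0 to 31.5. In 4 control mice (replicates 2, 4, 5 and 6) the spot was dimmer than the ring around it, while in every KO chimera it was at least 1.94 times as bright. In control replicate 2 the processed value is a substitute that the scanner's software sets for spots it cannot tell from background.

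**Figure D2:**
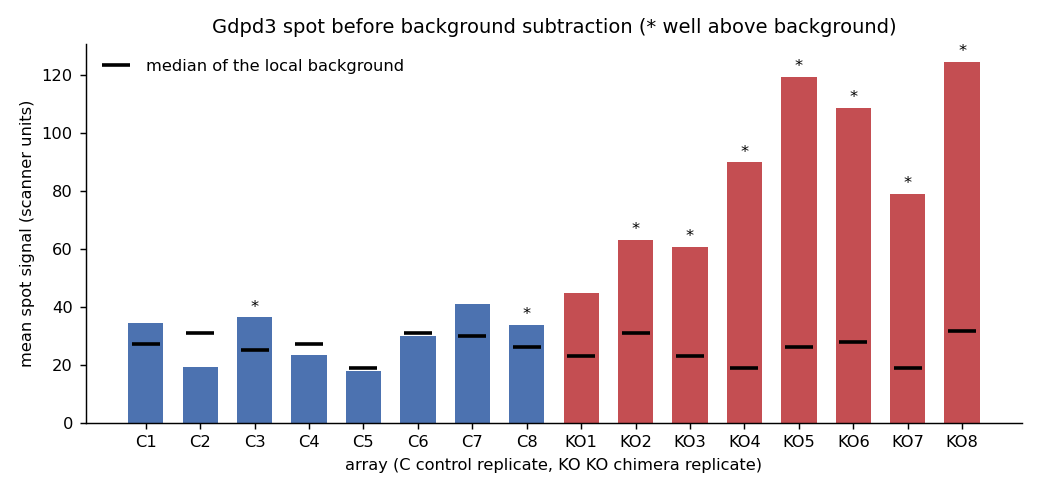
Mean brightness of the Gdpd3 spot before background subtraction (bars, scanner units) and the median of its local background (black lines) on each array. Stars mark the arrays on which the spot was well above background, 2 of 8 control and 7 of 8 KO chimeras; control bars lie between 18.0 and 40.8 and KO chimera bars between 44.6 and 124.

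The difference was positive in every processing tried, while its size varied. Gdpd3 was picked for this difference and its groups do not overlap. The sign within slides, within scan days and without 1 mouse was therefore fixed in advance. With normexp background correction, which adds an offset of 50 units to every spot, the difference was 0.88 ± 0.13 (SE of the fit). With each array's values raised to its dimmest well-measured signal, an alternative chosen after seeing the data, it was 2.40. With the authors' deposited value table it was 2.84 and with quantile normalization 2.93. On the 3 slides with more mice it was 2.77, 3.16 and 3.61, and on the slides with a single mouse of each group 2.02 and 4.25. Within the scan days it was 3.37 and 2.84. Leaving out any 1 mouse gave 2.96 to 3.22.

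**Figure D3:**
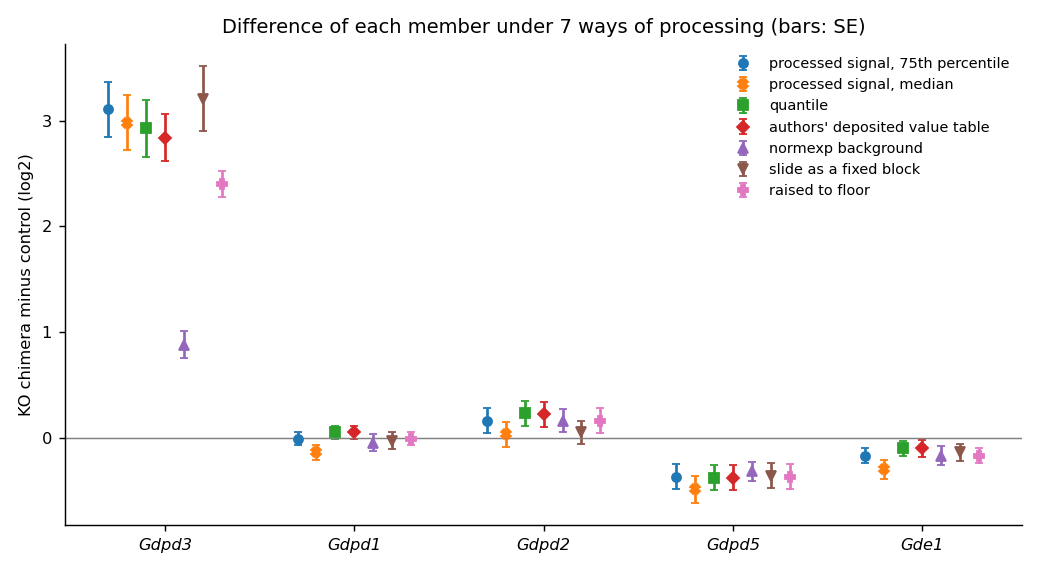
Difference between KO chimeras and control mice (log2) of the 5 members past the filter under 7 ways of processing, with the SE of each fit. Gdpd3 lies between 0.88 and 3.21 and the points of the other members lie between −0.49 and 0.23, the lowest being Gdpd5 with the median of each array.

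None of the 4 other members that could be tested differed between the groups at an adjusted p under 0.05 (limma, Benjamini-Hochberg over all 35144 probes), where 2.58% of all probes did (0.794% higher and 1.79% lower in KO chimeras). At an unadjusted p under 0.05 there were 2, Gdpd5 and Gde1, both lower in KO chimeras, by limma and by an exact permutation test alike. Over all genes tested, that share was 20.7%. In none of the 4 did the groups separate, and over all probes past the filter 0.839% had groups that did not overlap. With the median of each array in place of its 75th percentile, a scaling that moves the median of all genes by −0.13, Gdpd5 (adjusted p = 0.0212) and Gde1 (adjusted p = 0.0344) passed; relative to that shift their differences were −0.37 and −0.17, as before.

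Gdpd1, the closest counterpart of Gdpd3 in activity and also a lysophospholipase D, lies on chromosome 11 (probe 86847492 to 86847551, minus strand). Its level was 2.17 at the lowest, 2.39 at the median and 2.49 at the highest in control mice. In KO chimeras it was 2.26 at the lowest, 2.34 at the median and 2.57 at the highest. The groups covered nearly the same range, and the difference was −0.01 (95% interval −0.14 to 0.12; limma adjusted p = 0.953; exact permutation p = 0.867, two-sided). In fold terms the interval runs from 0.91 to 1.09. The difference was −0.16 within the first scan day and 0.15 within the second.

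Gde1, an integral membrane enzyme that releases N-acylethanolamines from their glycerophospho form and also splits glycerophosphoinositol, was well above background on all 16 arrays. Control mice ranged from 2.68 to 3.05 with a median of 2.84. KO chimeras ranged from 2.49 to 2.88 with a median of 2.69. The KO chimeras sat lower, with overlap, and the difference was −0.17 (95% interval −0.32 to −0.02; limma adjusted p = 0.193; exact permutation p = 0.0221, unadjusted, two-sided). It was −0.16 and −0.19 within the scan days, and within slides it ran from −0.47 to 0.11.

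Gdpd2, a glycerophosphoinositol phosphodiesterase of the plasma membrane known from bone-forming cells, has its probe on the X chromosome (97934160 to 97934219, plus strand). In control mice it ranged from 1.71 to 2.60 with a median of 2.10. In KO chimeras it ranged from 2.17 to 2.68 with a median of 2.30. The control mice spread over the wider range and enclosed most of the KO chimeras. The difference was 0.16 (95% interval −0.10 to 0.42; limma adjusted p = 0.501; exact permutation p = 0.239), with −0.24 and −0.21 on 2 of the 5 slides.

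Gdpd5, the anchor-cutting enzyme of neurons, also lies on chromosome 7 (probe 106609102 to 106609161, plus strand) and had the lowest p of the 4. In control mice it was −0.48 at the lowest, −0.11 at the median and 0.54 at the highest. In KO chimeras it was −0.59 at the lowest, −0.43 at the median and −0.20 at the highest. No KO chimera reached the control median, though 3 control mice lay inside the range of the KO chimeras. The difference was −0.37 (95% interval −0.63 to −0.10; limma adjusted p = 0.112; exact permutation p = 0.00824, unadjusted, two-sided), a ratio of 0.78. It was negative within all 5 slides (−0.78 to −0.12) and both scan days (−0.32 and −0.41).

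Gdpd4, a relative known from testis, was well above background on a single array. Its probe on chromosome 7 (105197473 to 105197532, plus strand) passed that mark in 1 of 8 control mice (replicate 8) and 0 of 8 KO chimeras. On 14 of the 16 arrays the processed value was the scanner's substitute. It did not pass the filter and was not tested, and no fold is given.

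Within groups the 4 other members tested did not vary as 1 block. After the group means were taken off, over the 16 arrays, Gdpd2 ran against Gde1 (r = −0.67) and against Gdpd5 (r = −0.59). Gde1 and Gdpd5 ran together (r = 0.47), as did Gdpd1 and Gdpd2 (r = 0.43). Gdpd3 had correlations of −0.36 to 0.18 with the other 5, among them Gdpd4, whose value was the scanner's substitute on 14 of 16 arrays. These correlations share arrays, brightness and scaling, and are given as a description. The part of background noise in those of Gdpd3 was not tested. The spread of Gdpd3 in KO chimeras (SD 0.30) was wider than that of 13.9% of 1000 probes of like mean level over all 16 arrays. That mean lies below the level of Gdpd3 in KO chimeras. The rank is therefore not against probes as bright as Gdpd3 was there. Its spread in control mice (SD 0.73) is that of values not well above background in 6 of 8.

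Among the 5 genes whose values over the 16 arrays were most like those of Gdpd3, out of 16834 with a symbol, were Trank1 (r = 0.909), Ctse (r = 0.909), Gbp7 (r = 0.899) and Dok3 (r = 0.892). These correlations hold the difference between the groups, which chose Gdpd3. Ctse, the gene of cathepsin E, a protease, had a like step: −6.46 ± 0.83 in control and −3.05 ± 0.37 in KO chimeras (SD, n = 8), and was well above background in 1 and 7 mice. Trank1 was measured in all mice and differed by 0.25, from 1.48 ± 0.08 to 1.74 ± 0.06. By Spearman's rho 1 of the 5, Dok3, stayed among the nearest 5. Once the group means were taken off, the nearest 5 were Cd300ld4 (r = 0.840), Treml4 (0.815), Gm4925 (0.802), AI662270 (0.798) and Irx4 (0.772), none of them among the first 5; Ctse then had r = 0.147. In control mice these values of Gdpd3 are mostly below what the scanner could measure, and Cd300ld4 and AI662270 were well above background in 3 and 2 control mice and in 5 and 6 KO chimeras. The part of background noise in these correlations was not tested.

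The genes next to Gdpd3 on chromosome 7 had small differences. The 5 nearest genes with a tested probe on each side lay within 97.9 kb, and their differences ran from −0.45 to 0.17 with a median of −0.05. One of the 10 passed, Sult1a1, a sulfotransferase 97.9 kb away, which fell by 0.45 (SE 0.12, limma adjusted p = 0.043) where 2.77% of all genes were called lower. It did not pass in 19 of 33 alternatives, 12 of them fits that leave out 1 mouse (controls 1, 2, 3, 4, 5 and 7, KO chimeras 1, 2, 3, 5, 6 and 8), with differences of −0.60 to −0.30 over all 33. The nearest on either side, 5.5 kb and 9.1 kb from the probe, were the kinase gene Mapk3 (−0.10, adjusted p = 0.544) and Ypel3 (−0.13, adjusted p = 0.438). A second Ypel3 probe gave 0.30. Another probe each of Sult1a1, Mapk3, Slx1b and Tbx6 gave −0.42, −0.09, 0.03 and 0.01. A probe of a transcript on the opposite strand, 4.6 kb downstream, was well above background on 0 of 16 arrays.

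**Figure D4:**
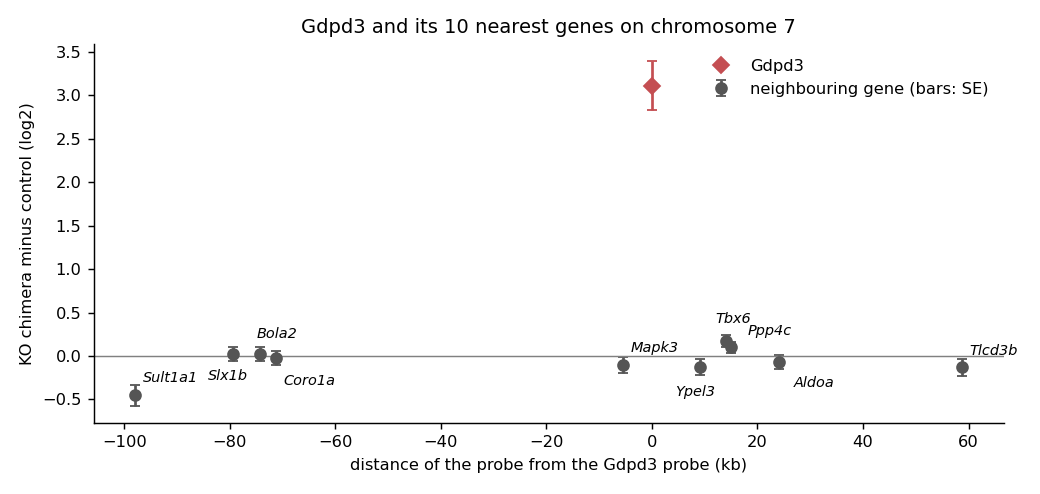
Difference between KO chimeras and control mice (log2, with SE) of Gdpd3 and its 10 nearest genes on chromosome 7, against distance of each probe from the Gdpd3 probe (kb). The neighbours lie between −0.45 and 0.17, and Gdpd3 at 3.11.

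Beyond the family, genes of the same lipid routes were counted in 6 lists, against 3.8% of all 24363 genes called (1.03% higher, 2.77% lower) and a median of 0.00. In these lists 5 genes fell and 0 rose. Among N-acylethanolamine and endocannabinoid genes 3 of the 11 tested fell and the median was −0.16. Dagla, which makes the endocannabinoid 2-arachidonoylglycerol in neurons, ranged from 1.25 to 2.03 in control mice (median 1.57) and from 0.56 to 1.17 in KO chimeras (median 0.96). Its groups did not overlap, as was the case for 0.839% of all probes past the filter. It fell by 0.71 (SE 0.12, limma adjusted p = 0.0116). Its relative Daglb fell by 0.24 (SE 0.05, adjusted p = 0.0193), also without overlap. Mgll, which breaks the same lipid down, fell by 0.48 (SE 0.12, adjusted p = 0.0376), and its other probes gave −0.46 and −0.21. Mgll did not pass in 17 of 33 alternatives, among them quantile normalization, the deposited table, no filter on dim probes, normexp, slide as a fixed block, and the fits that leave out control mouse 1, 2, 5 or 7 or KO chimera 2, 4, 5, 6 or 8 (adjusted p up to 0.0752 in these). Daglb did not pass with normexp (−0.22, adjusted p = 0.0891), and Dagla did.

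In the deacylation and choline lists 4.5% and 6.2% of the genes tested were called, near the 3.8% of all genes (2.77% lower). Of 22 genes of deacylation and reacylation, which supply the substrates of the family, 1 fell: Lypla2, a lysophospholipase and protein thioesterase (−0.34, SE 0.07, limma adjusted p = 0.016), which did not pass with slide as a fixed block (−0.32, adjusted p = 0.0626) and passed with slide as a random block. Of 16 genes of choline and phosphatidylcholine synthesis 1 fell, the choline transporter Slc44a1 (−0.46, SE 0.10, adjusted p = 0.0225). Its other probes gave 0.42 and −0.12, so they disagree, and with normexp it did not pass (adjusted p = 0.0522). Within a single scan day, with 4 mice per group, limma called 0 and 7 of all genes, and none of these 5; their differences there stayed negative. The list medians were −0.02 and −0.01.

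In 3 lists limma called 0 genes, where 3.8% of all genes were called and 20.7% had an unadjusted p under 0.05. Of 10 relatives of the family and lysophospholipases D, 2 had an unadjusted p under 0.05, and the smallest p belonged to Napepld, which makes N-acylethanolamines by another route (−0.47, adjusted p = 0.0544). Gpcpd1, which splits glycerophosphocholine and is the remaining mammalian relative, measured 0.25 ± 0.23 in control and 0.21 ± 0.34 in KO chimeras, a difference of −0.04 (adjusted p = 0.897). Of 16 genes of lysophosphatidic acid receptors and turnover 7 had an unadjusted p under 0.05, led by the kinase gene Agk (−0.17, adjusted p = 0.0692). Of 12 substrates and partners of the family's proteins 1 had an unadjusted p under 0.05, the protease gene Adam10 (−0.17, adjusted p = 0.153); Reck, a substrate of Gdpd5, gave −0.27 (adjusted p = 0.445).

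**Figure D5:**
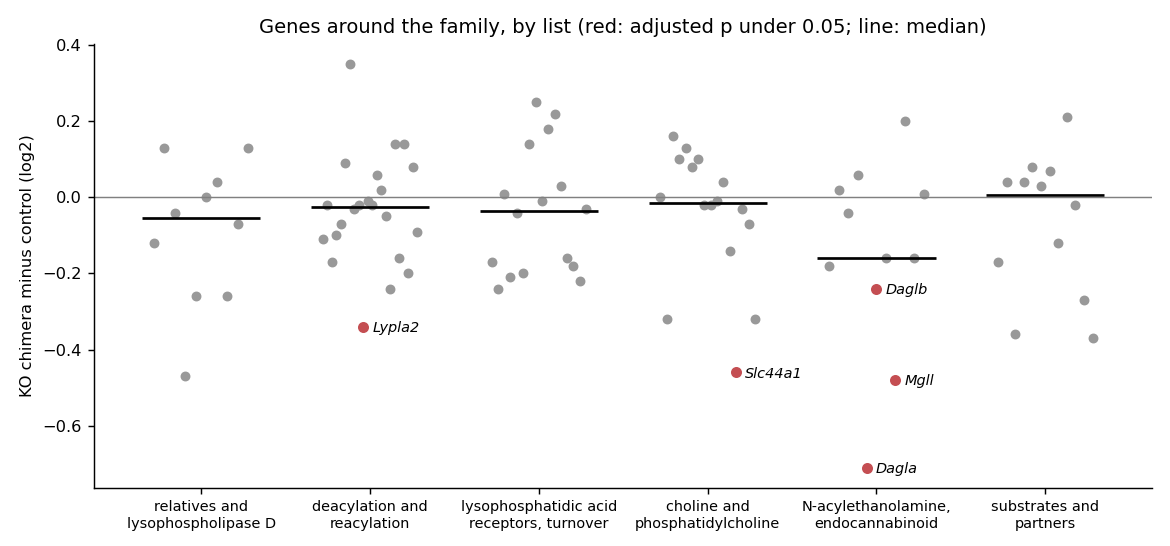
Difference between KO chimeras and control mice (log2) of each tested gene in the 6 lists around the family; red points passed at an adjusted p under 0.05 and the black line is the median of the list. The 5 red points are all below 0, with Dagla lowest at −0.71.

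Markers of other cell types were counted beside these values, against 2.77% of all genes called lower, 1.03% called higher and 20.7% with an unadjusted p under 0.05. The sums below add the members' linear signals, each relative to the 75th percentile of its array. Of 13 thalamus markers 2 fell and the median was −0.48, with a summed level of 36.9 to 119 in control mice and 29.6 to 54.3 in KO chimeras. Of 12 oligodendrocyte markers 4 fell (median −0.31), with sums of 240.5 to 361 and 186 to 340.1. Of 12 microglia markers 3 fell and 11 had negative differences (median −0.22), with sums of 86.5 to 109 and 87.4 to 128. Itgam, the brightest of the 12, weighs most in these sums and had the 1 positive difference (0.12). Of 8 neuron markers 1 fell (Rbfox3) and 7 had negative differences (median −0.20), with sums of 255 to 317 and 230.4 to 270.01. At an unadjusted p under 0.05 (limma) there were 5 thalamus, 7 oligodendrocyte, 7 microglia and 3 neuron markers. Of 8 red cell markers 1 fell (Hbb-b2, a gene with near-identical copies), all 8 had negative differences (median −0.29) and 5 had an unadjusted p under 0.05, with sums of 94.8 to 153 and 77.1 to 120.2. All 8 ependyma markers had positive differences (median 0.47), none passed, 7 had an unadjusted p under 0.05, and the sums were 8.52 to 26.2 and 17.8 to 35.2. Among markers of astrocytes, border and infiltrating macrophages, neutrophils, lymphocytes, choroid plexus, endothelium and pituitary 0 were called. In that order, 3, 2, 0, 2, 2, 1 and 0 of them had an unadjusted p under 0.05. Of 11 macrophage markers 6 passed the filter (median −0.16), of 9 neutrophil markers 5 (median −0.10) and of 10 lymphocyte markers 5 (median −0.02). Of the 6 macrophage markers 5 had negative differences. The smallest limma p belonged to Clec4n (−0.63, adjusted p = 0.134) and F13a1 (−0.51, adjusted p = 0.194).

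Gdpd3 is known from epithelia, so epithelial markers were counted too. Of 10, 5 passed the filter; Epcam, Cdh1, Krt20, Cdx2 and Muc2 did not. Of the 5, 4 had positive differences and 0 passed (1 at an unadjusted p under 0.05), with a median of 0.44 and sums of 1.32 to 2.16 in control mice and 1.69 to 3.42 in KO chimeras. The part of these cell types in the values of Gdpd3, Gdpd5, Gde1 or the endocannabinoid genes was not tested.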

How the data were processed

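Spot intensity files, as deposited by the authors, came from Agilent Feature Extraction 10.7 (submitters' processing notes); the signal used is linear with background taken off, per the file headers, and positions are mm9. The authors' deposited value table is on a log2 scale; how its arrays were aligned is not given in the sources. Control spots and outlier spots were left out, log2 was taken, the array's 75th percentile subtracted and spots of a probe averaged. A probe was kept where at least 8 of 16 arrays had it well above background (35144 of 55681; 3 with too few unmarked values were dropped). The 2 groups were fitted with limma 3.58.1 (lmFit, eBayes; R 4.3.3), per probe for members and, for lists and neighbours, per gene by its brightest probe (24363 genes), with Benjamini-Hochberg adjustment over all. Probes were named through accession, current or older symbol. The exact permutation test used all 12870 assignments.

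Members and lists were chosen with earlier results of these data known. Genes named were the members, Gpcpd1, the 5 genes most like Gdpd3 by each of 2 measures (1 is not reported here), the 5 nearest genes on either side, and up to 3 genes per list with the smallest p; Reck, other probes and markers that did not pass the filter were added after their values were seen. The number of arrays limits the precision, and p-values measure the spread between these mice, which may share marrow donors. Replicate numbers are shared by the groups and were checked for pairing. On simulated data of 24363 genes, 50.7% of 67 genes changed by 0.5, 94% of 67 changed by 1 and 100% of 66 changed by 2 (log2) were called, with 7 of 24163 unchanged genes. Alternatives were other scalings, background corrections, filters, blocks, weights and each mouse left out. Figures used matplotlib 3.10.9.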

Additional observations from a re-analysis of the deposited data

Results flagged for a closer look

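Gdpd4 in control replicate 8 stood apart from the other control mice. Its level there was −4.44 (log2 relative to the array's 75th percentile), against −7.46 to −6.49 in the other 7, and this was the only array on which the spot was well above background. The values of the other 7 are substitutes set by the scanner's software and not measured levels, so the comparison says little beyond that. The same array had the most spots well above background of all 16. It was 1 of 12 groups of values checked in this way (6 genes in 2 groups), and chance sets apart about 1 in 20.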

How the results depend on the processing

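Gdpd3 was picked for its difference and its groups do not overlap. The sign within slides, within scan days and without 1 mouse was therefore fixed in advance. The difference of Gdpd3 stayed positive in all 35 alternatives. It moved by more than the spread between mice with normexp (0.88), with values raised to the dimmest well-measured signal (2.40), and on the slides of 1 mouse per group (2.02 and 4.25); leaving out a mouse gave 2.96 to 3.22. The number of other members called was 2 with the median of each array and 0 in the remaining 32 alternatives. Gdpd1, close to 0, changed sign with quantile normalization (0.05), the deposited table (0.05), array weights (0.03), without control replicate 8 and KO chimera replicate 1 together (0.02), within the second scan day (0.15) and in 6 of the fits that leave out a mouse (range −0.04 to 0.01). In the lists with 0 genes called, 2 relatives of the family, 6 genes of lysophosphatidic acid and 1 substrate passed with the median scaling, 1 relative passed in 7 other alternatives, and 1 lysophosphatidic acid gene passed with eBayes trend and robust settings, with array weights and without control replicate 8. Within slides the sign turned on 2 slides for Gdpd1 (0.01 and 0.28) and for Gdpd2, and on 1 for Gde1.

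All genes called were 925, 27.0% of them higher. The count was 4200 with the median (4.2% higher), 527 with quantile normalization, 255 with normexp (9.8% higher), 536 with the deposited table, 594 with no filter (40.7% higher), 477 with slide as a fixed block and 2019 at a threshold of 0.1. Within the scan days it was 0 and 7 (2838 and 3433 at an unadjusted p under 0.05, limma). Leaving out a mouse gave 361 to 1028: 539, 361 and 367 without control replicates 1, 5 and 7, and 437, 582, 404 and 602 without KO chimera replicates 2, 4, 6 and 7. With the replicate number as a block 791 genes were called and no other member passed (lowest adjusted p = 0.143). The deviations of same-numbered mice correlated weakly (r −0.07 to 0.23, over 0.1 in 3 of 8 pairs), and 3 control mice correlated best with their own number. These values do not settle whether the numbers are pairs, and the numbers were not taken as pairs. Signal over background limits Gdpd3 in control mice and Gdpd4 in both groups.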
